A study of Mus musculus with 6 samples.

Results

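The complement genes examined here are 9 components, receptors and regulators of complement: C1qa, C1qb, C1qc, C1ra, C3, C4b, C3ar1, Cfp and Serping1. They were chosen by name, with earlier results of these data known. Their mRNA was read in cochlear and vestibular sensory epithelia of wild type C3H mice at postnatal day 2, on 3 Affymetrix arrays of each tissue. Of the 18193 genes named by a probe set of their own, 7 were members, read by 12 of the 45037 probe sets, and all 12 passed a filter that kept probe sets with a mean log2 value of at least 4.7 over the 6 arrays. C3 had no probe set in the annotation used here, and C4b shared its only probe set with another gene, so neither was given a value.

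Complement is a cascade of serum and tissue proteins that tags surfaces for removal by phagocytes. C1qa, C1qb and C1qc encode the chains of C1q, the recognition molecule of the classical pathway, which binds antibody complexes and dying cells and carries the proteases C1r and C1s. C3 and C4 are cleaved to form the deposited tags, properdin (Cfp) stabilises the enzyme of the alternative pathway, the receptor C3ar1 senses a small fragment of C3, and the C1 inhibitor (Serping1) blocks C1r and C1s. Macrophages and microglia are the main source of C1q in most tissues, while the liver makes most of the other circulating components.

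The samples were not pure epithelium, since mesenchyme from below and neurons came away with it. The vestibular samples joined the utricle, the saccule and the anterior and lateral cristae, and each pool held 10 to 12 inner ears. Each array thus read a mixture of cell types, and in such bulk samples fewer cells of a type and less RNA per cell cannot be told apart. The labels do not tie an array to a pool, so p-values measure the spread between arrays, which may be technical in part. No array was a copy of another, since each pair of arrays shared the same value in 12.0% to 21.4% of probe sets, and array medians ran from 5.6 to 5.7 on the log2 scale. Hair cell markers were present in both tissues: all 8 measured genes of that list passed the filter. Of these, 6 were called higher in the vestibule, against 15.1% of all genes tested, and the median difference of the list was 1.35 on the log2 scale.

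The windows of 250 bases before the start of C1qb, C1qc and C3ar1 are shown because these genes, all expressed by macrophages, were higher in the vestibule at every probe set. The sequences are those of RefSeq on GRCm38.p6, each on the minus strand, written 5′ to 3′ in the direction of the gene. Capitals mark GAGGAA or its reverse complement TTCCTC, the core of the PU box, which the macrophage transcription factor PU.1 can bind.
C1qb, chr4:136886201-136886450: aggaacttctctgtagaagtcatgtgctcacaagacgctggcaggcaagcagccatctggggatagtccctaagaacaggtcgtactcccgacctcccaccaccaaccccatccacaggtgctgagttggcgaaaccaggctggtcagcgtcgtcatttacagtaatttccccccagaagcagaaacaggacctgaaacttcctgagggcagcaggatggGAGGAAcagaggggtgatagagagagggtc
C1qc, chr4:136892915-136893164: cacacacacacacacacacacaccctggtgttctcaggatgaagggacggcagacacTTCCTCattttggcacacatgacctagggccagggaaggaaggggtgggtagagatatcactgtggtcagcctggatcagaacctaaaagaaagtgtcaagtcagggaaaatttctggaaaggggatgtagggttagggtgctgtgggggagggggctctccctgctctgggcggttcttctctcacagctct
C3ar1, chr6:122856158-122856407: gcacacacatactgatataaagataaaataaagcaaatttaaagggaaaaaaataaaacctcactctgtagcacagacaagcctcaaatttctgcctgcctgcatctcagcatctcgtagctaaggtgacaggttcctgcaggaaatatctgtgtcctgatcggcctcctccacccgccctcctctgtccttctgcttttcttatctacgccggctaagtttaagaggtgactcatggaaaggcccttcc
Of the 9 members, 6 had an entry in the sequence table, and 2 of these, C1qb and C1qc, held the motif on either strand. Its first base lay at position -30 in C1qb and -193 in C1qc, counted from the start. Of all 32851 windows of the same length, 23.3% held it, so a match is common and is given as a description. The genes C1qb, C1qc and C1qa follow each other directly on chromosome 4, between the protein-coding genes Ephb2 and Epha8.

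The comparison of vestibule with cochlea asks which transcripts separate the balance organs from the hearing organ at this age. Every probe set was fitted with limma, and a probe set was called at a Benjamini-Hochberg adjusted p under 0.1 over all tested probe sets and a fold of at least 1.3, the thresholds of the study. A difference is given as vestibule minus cochlea on the log2 scale. Most member probe sets were higher in the vestibule: 10 of the 12 were called higher there, against 12.0% of the 29554 tested. The median difference of the 12 was 1.33, against 0 over all tested probe sets. After median centring of the arrays the calls over all probe sets were 3016 for the vestibule and 2922 for the cochlea, in place of 3559 and 2182, and the same number of members, 10, was called higher in the vestibule. None was called higher in the cochlea by limma, against 7.38% of all tested, although 1 of the 12 had an unadjusted p under 0.05 in that direction. In the same 10 probe sets all vestibular arrays lay above all cochlear arrays, against 16.0% of the tested probe sets, and in none did all cochlear arrays lie above, against 11.5%. By the brightest probe set of each gene, 5 of the 7 measured members were called higher in the vestibule, against 15.1% of 14162 genes tested, and 0 in the cochlea, against 7.97%. The 2 that were not called were C1ra and Cfp, and 8 of the 12 probe sets differed by at least 1 on the log2 scale, as did 3.87% of all tested towards the vestibule.

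**Figure D1:**
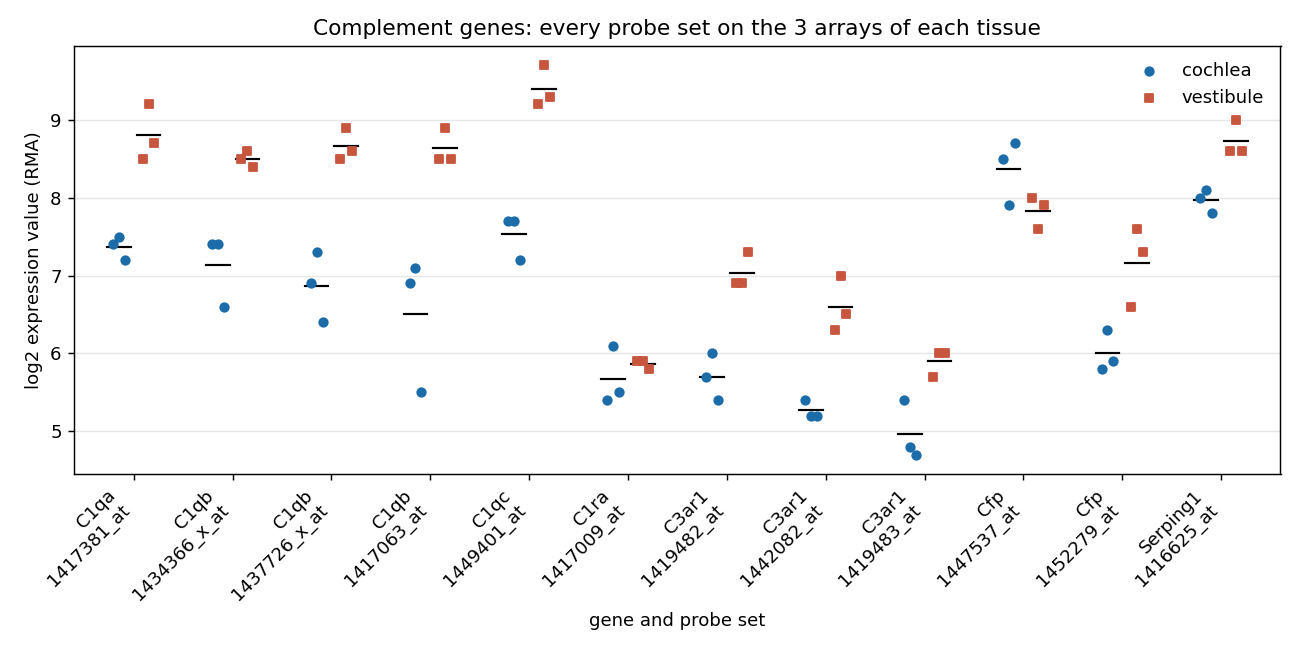
Log2 expression value (RMA) of each of the 12 complement probe sets on the 3 arrays of cochlea (circles) and the 3 of vestibule (squares), with bars at the means. The tissues lie apart in 10 probe sets, all with the vestibule above, and overlap in C1ra and in the Cfp probe set 1447537_at.

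The chains of C1q were higher in the vestibule by 1.37 to 2.13 on the log2 scale over their 5 probe sets. C1qa read 7.4, 7.5 and 7.2 on the cochlear arrays and 8.5, 9.2 and 8.7 on the vestibular arrays. The difference of C1qa was 1.43 (SE 0.18, adjusted p = 8.4e-04), a fold of 2.7. C1qc read 7.7, 7.7 and 7.2 in the cochlea and 9.2, 9.7 and 9.3 in the vestibule. Its lowest vestibular array stood well above its highest cochlear array, and its difference of 1.87 (SE 0.18, adjusted p = 2.0e-04) had the smallest adjusted p of the 12 probe sets.

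C1qb was read by 3 probe sets, which agreed in direction and differed in size. The probe set 1434366_x_at read 7.4, 7.4 and 6.6 in the cochlea and 8.5, 8.6 and 8.4 in the vestibule, a difference of 1.37 (95% confidence interval 0.89 to 1.85). The probe set 1437726_x_at read 6.9, 7.3 and 6.4 against 8.5, 8.9 and 8.6, a difference of 1.80 (1.3 to 2.3). The probe set 1417063_at read 6.9, 7.1 and 5.5 against 8.5, 8.9 and 8.5, a difference of 2.13 (1.29 to 2.97). Cochlea replicate 3 was the lowest array at every probe set of C1q, and most of all at this one, whose cochlear spread was 0.87 (SD, n = 3) against 0.23 in the vestibule. Without that array the difference of 1417063_at was 1.63 (adjusted p = 0.00374). The suffix _x_at marks probe sets that may also read related sequences.

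The chains of C1q assemble in fixed proportion, so their differences were also set against each other within each array, with the brightest probe set for C1qb. C1qc minus C1qa came to 0.3, 0.2 and 0 in the cochlea and 0.7, 0.5 and 0.6 in the vestibule. C1qc minus C1qb came to 0.3, 0.3 and 0.6 against 0.7, 1.1 and 0.9. In both pairs the tissues did not overlap, and the contrast differed between them by 0.43 and 0.50. The second of these depended on the probe set of C1qb: with 1437726_x_at C1qc minus C1qb differed by 0.07 and with 1417063_at by -0.27, both with overlap. C1qb minus C1qa did overlap, with tissue means of -0.23 and -0.30. With 3 arrays a tissue, the smallest two-sided p of an exact permutation is 0.1, the value of the first 2 pairs, and that of C1qb minus C1qa was p = 1. These pairs were chosen after the values were seen.

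**Figure D2:**
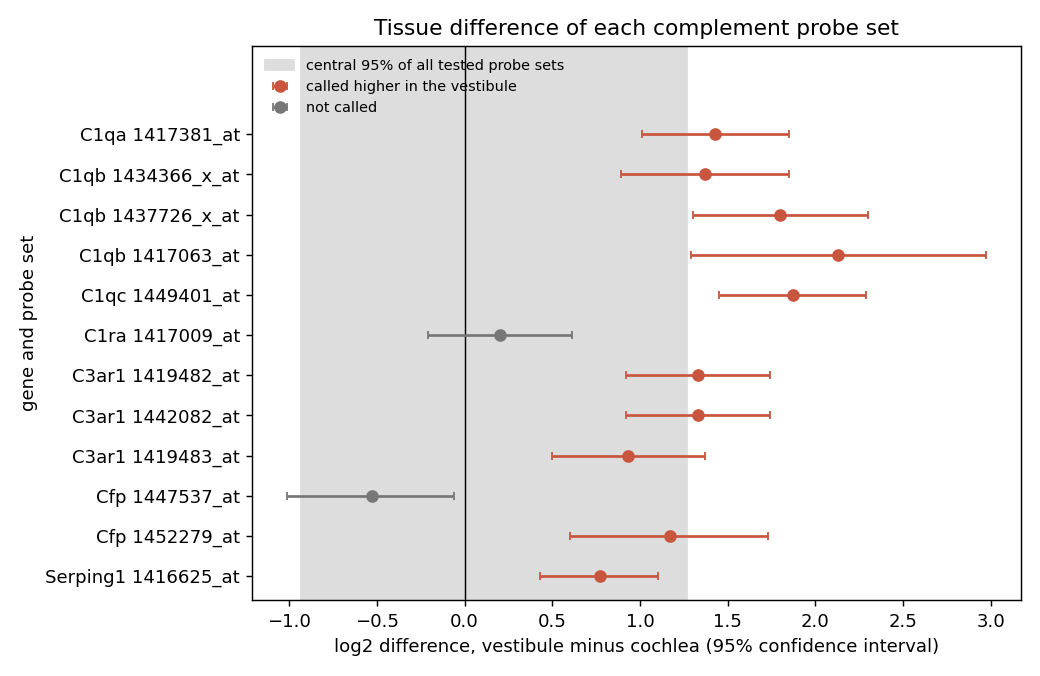
Log2 difference of vestibule minus cochlea for each complement probe set, with its 95% confidence interval from the limma fit. The grey band spans the central 95% of all tested probe sets, from -0.93 to 1.27, and the points of C1q and the 2 brighter probe sets of C3ar1 lie beyond its upper edge.

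C3ar1, the receptor for the C3a fragment on myeloid cells, was higher in the vestibule at all 3 of its probe sets. The brightest, 1419482_at, read 5.7, 6.0 and 5.4 in the cochlea and 6.9, 6.9 and 7.3 in the vestibule, a difference of 1.33 (SE 0.18, adjusted p = 0.00111). The probe set 1442082_at read 5.4, 5.2 and 5.2 against 6.3, 7.0 and 6.5, and its difference was also 1.33. The dimmest, 1419483_at, read 5.4, 4.8 and 4.7 against 5.7, 6.0 and 6.0, a difference of 0.93 (adjusted p = 0.0108). Its call was lost with the replicate number as a block in the limma fit (adjusted p = 0.113). Some of the cochlear values of this last probe set were at or near the filter of 4.7, and cochlea replicate 3 and vestibule replicate 1 were the lowest, or tied for the lowest, of their tissue at all 3 probe sets.

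Serping1, which encodes the C1 inhibitor, was higher in the vestibule by a smaller step. It read 8.0, 8.1 and 7.8 in the cochlea and 8.6, 9.0 and 8.6 in the vestibule. The groups did not overlap, and the difference was 0.77 (95% confidence interval 0.43 to 1.10, adjusted p = 0.00784), a fold of 1.7. This is the smallest difference among the 10 called probe sets.

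C1ra, the protease that C1q activates first, was not called. It read 5.4, 6.1 and 5.5 in the cochlea and 5.9, 5.9 and 5.8 in the vestibule, a difference of 0.20 (95% confidence interval -0.21 to 0.61, adjusted p = 0.522). Cochlea replicate 2 lay above every vestibular array, and without it the difference was 0.42 and passed the test (adjusted p = 0.0391). A near-identical gene, C1rb, lies in the mouse genome, and whether this probe set reads both was not tested.

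Cfp, which encodes properdin, was read by 2 probe sets that pointed in opposite directions. The probe set 1452279_at read 5.8, 6.3 and 5.9 in the cochlea and 6.6, 7.6 and 7.3 in the vestibule, a difference of 1.17 (SE 0.25, adjusted p = 0.0126). The probe set 1447537_at, the brighter of the pair, read 8.5, 7.9 and 8.7 in the cochlea and 8.0, 7.6 and 7.9 in the vestibule, a difference of -0.53 (95% confidence interval -1.01 to -0.06, adjusted p = 0.133). It did not pass the test, and its groups overlapped through cochlea replicate 2. It passed towards the cochlea at -0.60 after median centring (adjusted p = 0.0837), at -0.62 after a second quantile normalization (0.0914), at -0.57 with array weights (0.0460) and at -0.77 without cochlea replicate 2 (0.0273). With the replicate number as a block in the limma fit it also passed, at -0.53 (adjusted p = 0.0963). Within each array, 1452279_at minus 1447537_at was -2.7, -1.6 and -2.8 in the cochlea and -1.4, 0 and -0.6 in the vestibule, so the tissues did not overlap in this contrast, with an exact permutation p = 0.1, two-sided, the smallest possible. The direction of properdin mRNA therefore depended on the probe set. Which transcripts each of them reads was not tested.

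Macrophage markers were mostly higher in the vestibule too. Of 21 measured genes of a list of 22 macrophage markers, 18 were called higher in the vestibule, against 15.1% of all genes tested. Of the rest, 2 did not pass, and P2ry12, a microglial receptor, was under the filter. Fcgr1, among the 18, had a cochlear mean of 4.57, under the filter of 4.7. The median difference of the macrophage list was 1.17, and 1.3 over its 20 genes past the filter. It was 1.35 for the hair cell list, all past the filter, and 0.03 over all genes tested. The summed level of the macrophage markers, as log2 of the sum of linear values, was 11.89 to 12.10 on the cochlear arrays and 13.50 to 13.77 on the vestibular arrays. The defining markers were read in both tissues. Csf1r, the receptor for the macrophage growth factor, read 9.8 to 10.1 on cochlear and 11.6 to 11.9 on vestibular arrays. The surface receptor gene Adgre1 differed by 1.57, the lysosomal marker Cd68 by 2.03 and the pan-leukocyte gene Ptprc by 1.60. The largest difference of the list was that of the mannose receptor Mrc1 at 2.33, followed by the scavenger receptor Cd163 at 2.20, while Cx3cr1 stood at 0.20 and Trem2 at -0.03 without a call. Spi1, which encodes PU.1, differed by 0.73 (adjusted p = 0.0202). The integrin gene Itgam, often used as a myeloid marker, was under the filter in both tissues, at 3.6 to 3.9.

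**Figure D3:**
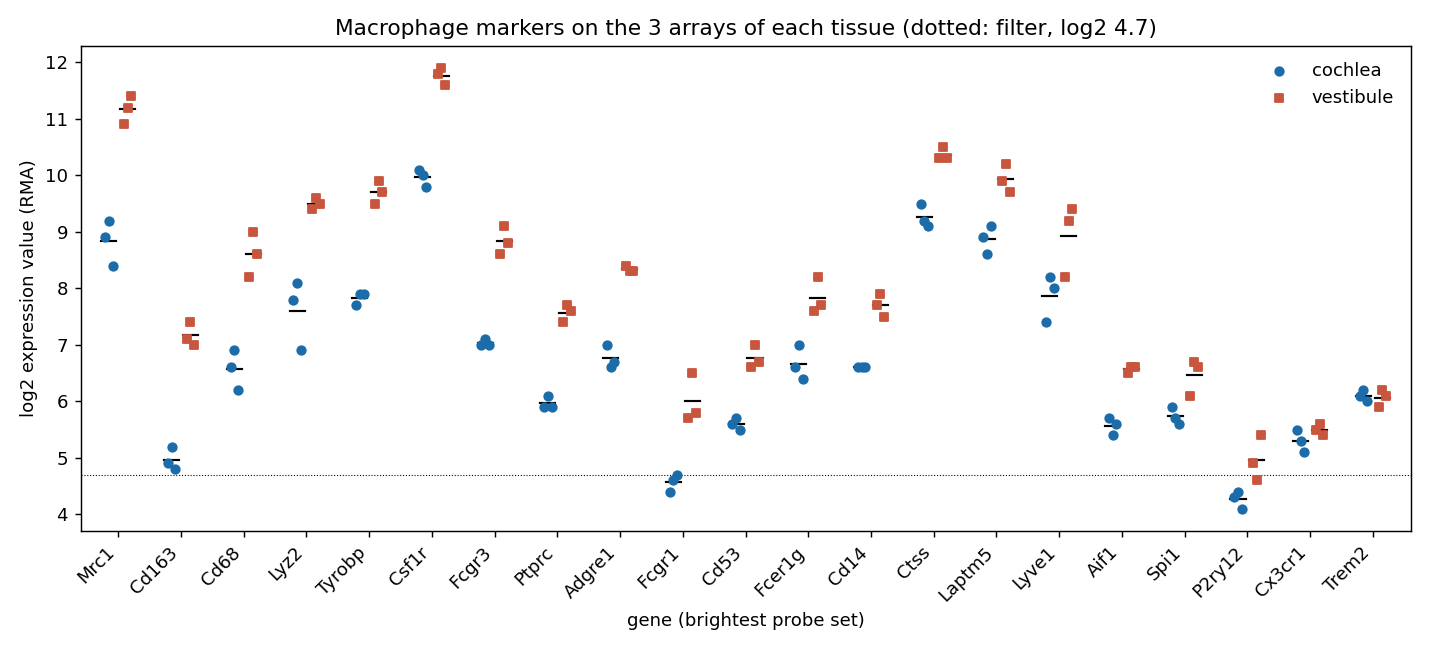
Log2 expression value (RMA) of the 21 measured macrophage markers by their brightest probe set, on the 3 arrays of cochlea (circles) and the 3 of vestibule (squares), with bars at the means and a dotted line at the filter of 4.7. The genes are ordered by their difference, from Mrc1 at 2.33 to Trem2 at -0.03.

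Each member was then expressed relative to the mean of the 20 macrophage markers past the filter on the same array, a mean that ran from 6.76 to 6.98 on cochlear and from 8.06 to 8.44 on vestibular arrays, a difference of 1.36. On this scale the difference of C1qa was 0.08, with overlapping tissues, and that of the brightest probe sets of C1qb and C3ar1 was 0.01 and -0.02. C1qc stood at 0.51 on this scale, at 0.44 to 0.79 on cochlear and 1.09 to 1.26 on vestibular arrays, and did not overlap. The single markers themselves differed by -0.03 to 2.33, and the difference of C1qc before this step, 1.87, lay inside that range. The probe sets 1437726_x_at and 1417063_at of C1qb stood at 0.44 and 0.78 without overlap, and without cochlea replicate 3 at 0.27 and 0.34. Serping1 stood at -0.59, at 1.04 to 1.12 on cochlear and 0.38 to 0.56 on vestibular arrays, C1ra at -1.16, and the Cfp probe sets 1452279_at and 1447537_at at -0.19 and -1.89, where 1452279_at alone of these overlapped. The dimmest probe set of C3ar1 stood at -0.42 without overlap, and at -0.22 without cochlea replicate 1. No p-value below 0.1 can arise here with an exact permutation test, so these values are descriptions. The part of macrophages in the tissue difference of complement mRNA was not tested beyond them. The mean log2 value of the hair cell list ran from 7.46 to 7.76 on cochlear and from 8.91 to 9 on vestibular arrays. A step of similar size was thus not limited to macrophage markers, and the members were not set against the hair cell list.

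**Figure D4:**
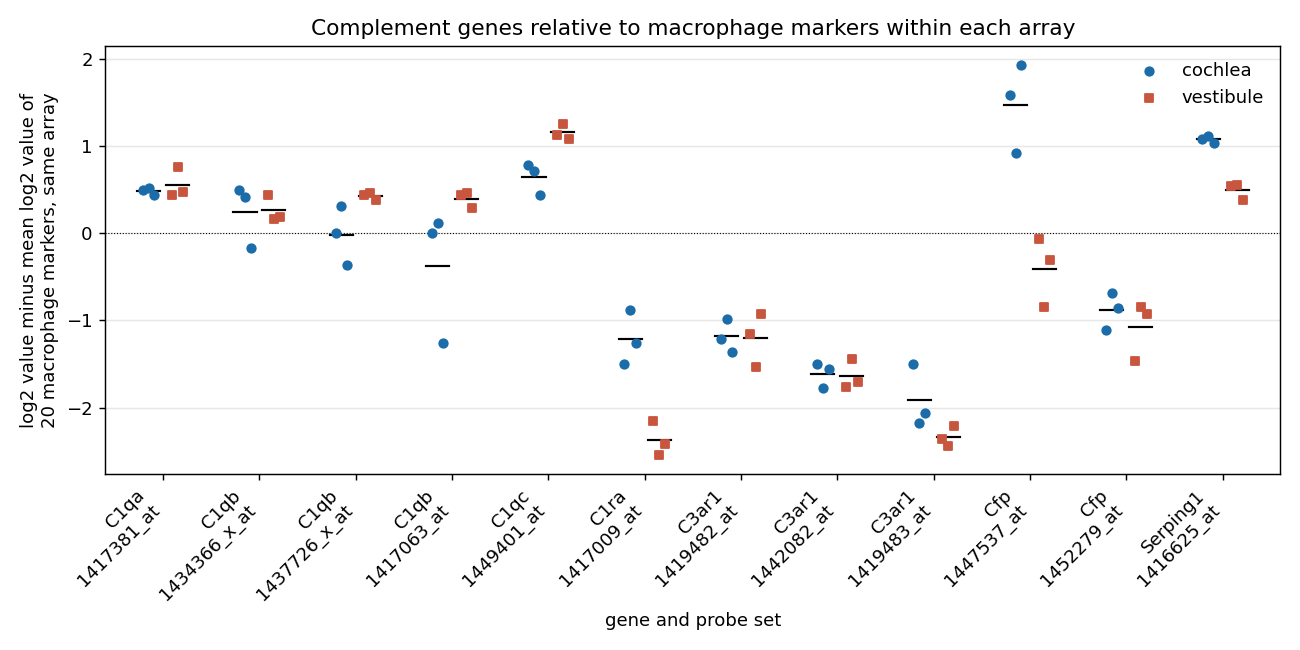
Log2 value of each complement probe set minus the mean log2 value of 20 macrophage markers on the same array, for the 3 arrays of cochlea (circles) and the 3 of vestibule (squares), with bars at the means. C1qa, 1434366_x_at of C1qb, 1452279_at of Cfp and the 2 brighter probe sets of C3ar1 overlap between the tissues, while C1qc lies higher and Serping1 and C1ra lie lower in the vestibule.

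Markers of other possible sources were read in the same way, and their counts stand beside the 15.1% of all genes tested that were called higher in the vestibule and the 7.97% in the cochlea. Of 7 measured hepatocyte genes 3 were under the filter, among them Alb and Fgb, and Ttr was the only 1 called, at 1.03. Of 8 measured neutrophil genes 2 were called higher in the vestibule, S100a8 at 1.13 and Ngp at 0.90, and 3 were under the filter. Of 6 mast cell genes 1 was under the filter and 2 were called higher in the vestibule, Cpa3 at 1.17 and Cma1 at 0.77. The highest cochlear array of Cma1 equalled its lowest vestibular array, at 6.8 (limma adjusted p = 0.0976). Cochlea replicate 1 was the lowest array of both, at 5.1 for Cpa3 and 5.6 for Cma1. Of 7 lymphocyte genes 5 were under the filter and the others did not pass. Of 5 red blood cell genes 2 were under the filter and 2 were called higher in the vestibule. Their list median was 0.10, and 0.43 over the 3 past the filter. Of 12 mesenchyme genes, a source of C1r, C1s and the C1 inhibitor in many tissues, 5 were called higher in the vestibule, led by Col1a1 at 1.87 and Pdgfra at 0.93, and Lum was called higher in the cochlea at -0.97, with a list median of 0.33. Of 10 endothelial genes 1 was under the filter, 6 were called higher in the vestibule, led by Kdr at 2.97, and Emcn was higher in the cochlea at -1.57. As log2 of the sum, the list level of the cochlear and vestibular arrays was 15.17 to 15.60 and 15.74 to 15.88 for mesenchyme, 10.63 to 11.22 and 11.50 to 11.73 for endothelium, 8.10 to 8.19 and 8.45 to 9.14 for neutrophils, 7.79 to 8.53 and 8.55 to 8.88 for mast cells. The hepatocyte list, at 12.44 to 12.74 and 13.32 to 13.72, was carried by Ttr, which read 12.4 to 12.7 and 13.3 to 13.7, while its other genes read 4.2 to 5.6. Whether these cells contribute to the values of the complement genes was not tested.

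The other genes of the complement system were mixed in direction. Of 53 listed genes 44 had a probe set of their own, 24 passed the filter, 6 were called higher in the vestibule, 2 in the cochlea and 16 did not pass, where 15.1% and 7.97% of all genes tested were called in these directions. Of the 6, Itgb2 and Colec11 had cochlear means of 4.4 and 4.57, under the filter, and passed it through the vestibular arrays. The median difference was -0.01 over the 44 and -0.03 over the 24, against 0.03 over all genes tested. Of those under the filter, Hc, which encodes C5, read 4.1, 4.4 and 4.1 in the cochlea and 4.7, 4.9 and 5.0 in the vestibule.

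Among receptors, Cd93, a C-type lectin first described as a C1q receptor and expressed by endothelium and myeloid cells, had the largest difference towards the vestibule. It read 6.2, 6.1 and 5.6 in the cochlea and 8.2, 8.0 and 8.1 in the vestibule, a difference of 2.13 (adjusted p = 5.3e-05), and its other called probe set stood at 1.63. Itgb2, the shared chain of the complement receptors 3 and 4, read 4.4 on each cochlear array and 5.0, 5.7 and 5.2 in the vestibule, a difference of 0.90 (adjusted p = 0.00777). The cochlear values of Itgb2 lay under the filter, and the means over all arrays of its partner chains Itgam and Itgax and of the C5a receptor gene C5ar1 were under it too.

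Among the pattern recognition molecules, Colec12, a collectin of the surface of endothelium and stroma, read 8.3, 8.4 and 8.5 in the cochlea and 10.0, 10.2 and 10.3 in the vestibule, a difference of 1.77. The ficolin gene Fcna, a macrophage product, read 6.5, 6.8 and 6.6 against 7.4, 8.3 and 8.0, a difference of 1.27. Colec11 differed by 0.40 (adjusted p = 0.0785), with a cochlear mean of 4.57, under the filter. The lectin pathway proteases Masp1 and Masp2 stood at -0.17 and -0.07 without a call. Ptx3, a pentraxin that binds C1q, went the other way. It read 6.7, 6.4 and 6.7 in the cochlea and 5.2, 5.0 and 5.1 in the vestibule, a difference of -1.50 (adjusted p = 8.8e-05). Another probe set of Ptx3 had the same mean over all arrays, 5.85, so neither was the brighter. It was also called higher in the cochlea, at a smaller difference of -0.77 (adjusted p = 0.00127).

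Among regulators, clusterin (Clu), an inhibitor of the terminal complex and an abundant chaperone, was higher in the cochlea at all 4 of its probe sets. The brightest read 14.7 on each cochlear array and 11.9, 11.9 and 11.5 in the vestibule, a difference of -2.93 (adjusted p = 3.3e-06). These cochlear values lie close to the highest value on any array, 15, and whether the probe set was near saturation was not tested. The other probe sets stood between -2.73 and -3.27, the largest at the dimmest of them. Factor I (Cfi), the protease that inactivates C3b and C4b, read 8.6, 8.7 and 8.6 in the cochlea and 9.2, 9.3 and 9.2 in the vestibule, a difference of 0.60 (adjusted p = 0.00490). The membrane regulators Cd59a at 0.57, Cr1l at 0.33, Cd46 at -0.17 and Cd55 at -0.30 were not called, nor was Susd4 at -0.37, whose fold was under 1.3. Another probe set past the filter went the other way for Cd59a, at -0.23, and for Cr1l, at -0.20, also without a call.

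C1s1, Cfb, C6 and C8g did not pass by their brightest probe sets, nor did C2. C1s1, the partner of C1r, stood at -0.33 (95% confidence interval -0.75 to 0.09). C2, which C1s cleaves, stood at 0.43 by its brightest probe set, and another of its 3 probe sets was called at 0.73 (adjusted p = 0.0714) although its arrays overlapped. Cfb of the alternative pathway stood at 0.13, C6 at -0.27 and C8g at -0.03, while C8a, C8b and C9 of the membrane attack complex were under the filter in both tissues.

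**Figure D5:**
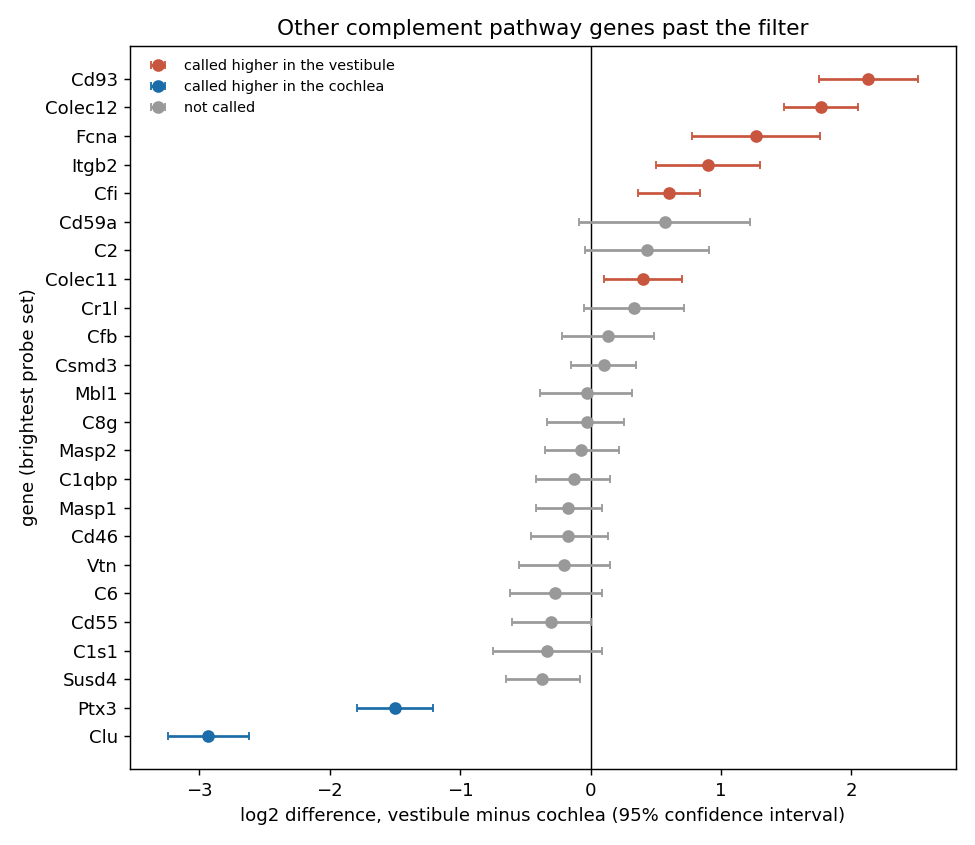
Log2 difference of vestibule minus cochlea, with its 95% confidence interval from the limma fit, for the 24 other complement genes past the filter, by their brightest probe set. Of these, 6 were called higher in the vestibule, up to 2.13 for Cd93, and Ptx3 and Clu were called higher in the cochlea, at -1.50 and -2.93. Another probe set of Ptx3, with the same mean over all arrays, was called at -0.77.

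The mean log2 value of C1qa, C1qb and C1qc was 7.5, 7.53 and 7 on the cochlear arrays and 8.73, 9.17 and 8.80 on the vestibular arrays. Over the 6 arrays, the genes most like this profile by Pearson correlation, among 2525 genes with a range of at least 1, were Ak8 (r = 0.9977), Cbr2 (0.9961), Edaradd (0.9959), Ctsk (0.9950) and Fam149a (0.9949). Of the macrophage markers that met the range, Cd68 ranked 9 and Cd53 ranked 18, while Laptm5 ranked 998 and Lyve1, the lowest, ranked 1360. Among the other members, Serping1 ranked 45, C3ar1 ranked 425 and Cfp, by 1447537_at, ranked 1955 with r = -0.83. The profile is mostly the step between the tissues, which these genes share along with the same 6 arrays, so the order is a description.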

How the data were processed

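Total RNA was amplified with a 2-cycle kit and read on Affymetrix mouse expression arrays, 3 of cochlea and 3 of vestibule. The authors computed the deposited log2 values by RMA with quantile normalization, with no version stated, and the values carry 1 decimal. They were used without further scaling. Present calls by MAS5, which the study used as a filter, could not be repeated, and a mean log2 value of at least 4.7 served instead. Without the 64 control probe sets, 34945 carried 1 gene, 932 several and 9160 none, and 34741 symbols were updated through their Entrez number. The members, their list and the tests were chosen with earlier results of these data known. Tissues were compared with limma 3.58.1 (lmFit and eBayes, two-sided) in R 4.3.3, after a check on simulated data, and figures were drawn with matplotlib 3.10.9. A gene outside the members is given by its brightest probe set. Of each list, those named are the called complement genes with the largest differences and markers at the extremes, and others were chosen after their values were seen. The precision is limited by 3 arrays per tissue. The alternatives were other filters, median centring, a second quantile normalization, jitter of at most 0.05, a mean-variance trend, weighted arrays, the replicate block, leaving out each array, other thresholds and other rules for a gene with several probe sets. Leaving out each array from the values relative to macrophage markers, and the other C1qb probe sets in the contrast with C1qc, were added after seeing the data.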

Additional observations from a re-analysis of the deposited data

How the results depend on the processing

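The count of 10 member probe sets called higher in the vestibule was 8 to 11 over all alternatives run, 8 with a mean log2 value of at least 6, which left out 3 member probe sets, and 10 to 11 when any array was left out. The count of member genes called there by the brightest probe set was 5 to 6. One member probe set, 1447537_at of Cfp, was called higher in the cochlea after median centring, a second quantile normalization, with array weights and with the replicate block (1 in each, against 0), and leaving out an array gave 0 to 1. No difference of a member probe set changed sign. Of the other complement genes 4 were called higher in the vestibule with a mean of at least 6, in place of 6. At the same setting 1 was called higher in the cochlea, in place of 2, where Ptx3 was not tested. Without vestibule replicate 1 the calls over all probe sets fell from 3559 to 2355 for the vestibule and from 2182 to 1414 for the cochlea, and over all arrays left out in turn they ran from 2355 to 3884 and from 1414 to 2796. The labels do not say whether the replicate numbers pair the arrays. Deviations of same-numbered arrays correlated at 0.22, 0.15 and 0, and those of differently numbered arrays at -0.22 to 0.03, so a pairing is not settled. With the replicate block, 9 member probe sets were called higher in the vestibule. The call of 1419483_at of C3ar1 was lost there (0.93, adjusted p = 0.113), and 1447537_at of Cfp was called at -0.53 (adjusted p = 0.0963). The cause of these changes was not tested.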
